A study of Mus musculus with 24 samples.

Results

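The genes described here encode tubulins and stathmins: Stmn1, Stmn2, Stmn3, Tuba1a, Tuba4a, Tubb2a, Tubb2b, Tubb3, Tubb5 and Tubb6. They were found as probe sets that the array annotation assigns to 1 gene only and whose symbol is one of these 10. The rule gave 17 of the 20380 single-gene probe sets, and all 10 genes had at least 1. Stmn2 was chosen by its measured knockdown values, which change sign between culture states, so these are given here as a description and are not tested. Each gene is represented by its brightest probe set, and 9 of the 10 passed the filter on low values, against 8600 of 12393 genes in all. Stmn3, a stathmin of the neuronal kind, did not pass: its probe sets lay between 0.70 and 1.38 and between 1.25 and 2.16 log2 units on the 24 arrays and were above the filter on 0 of them. The 9 tested genes were above the filter on all 24 arrays.

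RNA came from C2C12 cells, a mouse myoblast line that can divide, arrest reversibly in suspension or fuse into myotubes. Cells received siRNA against IFT88 (IFT88KD), a subunit of the intraflagellar transport machinery that builds primary cilia, or a negative control siRNA (control), in 4 states. Proliferating cells were attached in medium with 20% fetal bovine serum, and quiescent cells were held in suspension with the same share of serum. Replated cells were collected 2 h after return to a surface, and differentiating cells were brought to 80% confluence and kept for 48 h in 2% horse serum. Each of the 8 groups had 3 arrays. Nothing in the labels says that the 3 came from separate cultures, so p-values measure only the spread between these arrays, which may be technical.

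Microtubules are hollow polymers of alpha- and beta-tubulin dimers. They form the spindle of dividing cells, the axoneme of cilia and, in muscle cells, long parallel arrays along the fusing myotube. Mammalian genomes hold several genes for each subunit, whose proteins differ mostly in their acidic tails, and free tubulin limits the stability of tubulin mRNA in a feedback loop. Stathmins bind unpolymerised dimers and favour shrinking microtubules. Stmn1 is the widespread form, abundant in dividing cells and regulated by phosphorylation in mitosis, while Stmn2 (SCG10) and Stmn3 (SCLIP) are membrane-anchored and best known from neurons.

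The beta-tubulin genes all fell in suspension and diverged on replating and differentiation, so the 250 bases upstream of the start are shown for 3 of them. Tubb5 and Tubb3 had the most similar pattern of any pair of beta-tubulins, and Tubb2a followed another. RefSeq gave a window for 6 of the members in build GRCm38.p6, at chr17:35838302-35838551 (minus strand) for Tubb5, chr8:123411303-123411552 (plus strand) for Tubb3 and chr13:34078009-34078258 (minus strand) for Tubb2a. Each is written 5′ to 3′ on the gene's strand, with matches to the motifs searched in capitals.
Tubb5: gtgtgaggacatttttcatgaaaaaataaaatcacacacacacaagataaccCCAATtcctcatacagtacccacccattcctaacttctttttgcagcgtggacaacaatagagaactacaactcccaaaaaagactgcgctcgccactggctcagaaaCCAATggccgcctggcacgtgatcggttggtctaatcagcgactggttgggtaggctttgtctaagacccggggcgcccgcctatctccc
Tubb3: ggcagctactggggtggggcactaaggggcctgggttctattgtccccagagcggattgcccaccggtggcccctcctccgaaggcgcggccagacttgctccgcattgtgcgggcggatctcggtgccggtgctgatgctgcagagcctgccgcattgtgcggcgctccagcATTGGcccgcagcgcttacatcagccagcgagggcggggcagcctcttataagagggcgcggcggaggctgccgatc
Tubb2a: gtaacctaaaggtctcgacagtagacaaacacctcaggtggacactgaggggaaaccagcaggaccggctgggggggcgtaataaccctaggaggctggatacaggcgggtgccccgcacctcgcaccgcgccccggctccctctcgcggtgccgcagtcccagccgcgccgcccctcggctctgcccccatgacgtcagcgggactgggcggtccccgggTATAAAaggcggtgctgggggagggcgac
The motifs were the CCAAT box (CCAAT), the CHR element of cell cycle genes (TTTGAA or TTCGAA), an E2F site (TTTGGCGC, TTTCCCGC, TTTGCCGC or TTTCGCGC), the MyoD type of E-box (CAGCTG) and the TATA box (TATAAA), each on both strands. Tubb5 held 2 CCAAT matches, starting at -198 and -90 from the start site. Tubb3 held 1, on the other strand and so written ATTGG, at -77. Tubb2a held no CCAAT and had TATAAA at -29. Of 32851 RefSeq promoter windows of this length, 33.8% held CCAAT and 12.4% TATAAA. CHR letters stood in 17.1% of them, E2F letters in 1.86% and CAGCTG in 13%, and none of these 3 was in the windows of Tubb5, Tubb3 or Tubb2a. A match describes the letters of the window and says nothing of binding.

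The arrays of the 4 states are not on one scale. The median of all probe sets was 2.91 to 2.98 in control replated arrays and 3.8 to 3.83 in control quiescent arrays, and the sources used here do not say whether the authors normalised the states together. The median change over all 8600 genes was 0.14 from control proliferating to quiescent, -0.61 from quiescent to replated and -0.06 from proliferating to differentiating. Some changes between states are therefore also given relative to this median, and the rest should be read beside it. Between IFT88KD and control arrays of one state the median was within 0.01 of 0. Ift88 itself was lower in IFT88KD quiescent cells by -0.69 (SE 0.16, limma adjusted p = 0.0113). It missed the threshold in proliferating (-0.52, limma adjusted p = 0.295) and replated cells (-0.59, limma adjusted p = 0.0535). The change was -0.01 in differentiating cells (limma adjusted p = 0.999). The Ift88 probe set read 2.01 to 4.45 over the 24 arrays, at the 40.5th to 56th percentile, near the filter at the 40th. Its values are therefore a poor measure of the strength of the knockdown. Myoblast markers were above the filter for 6 of 7 genes in every group.

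**Figure D1:**
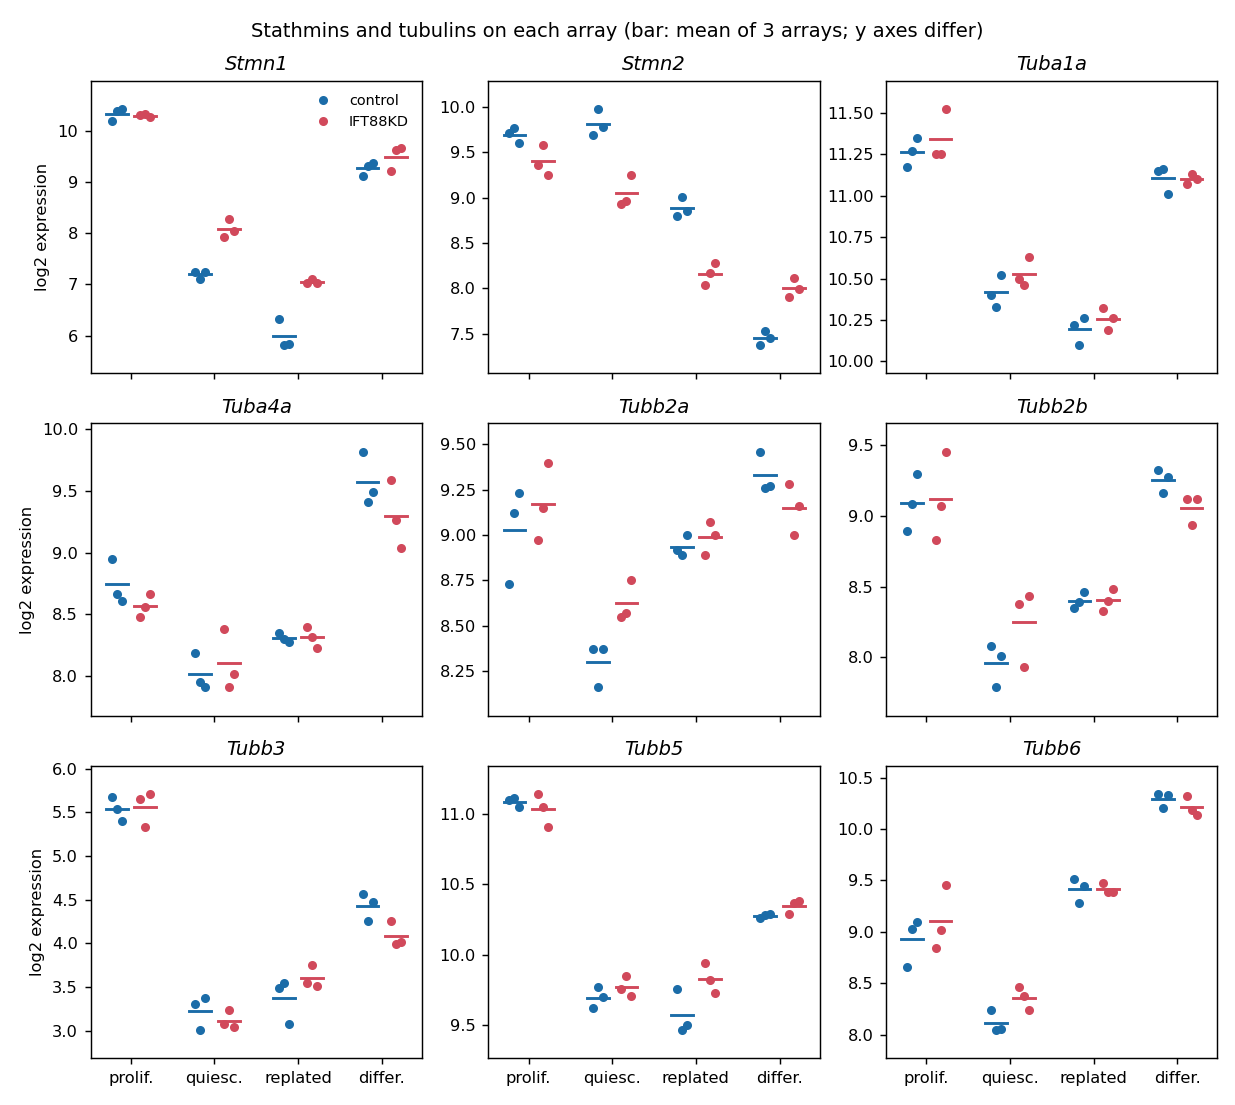
Log2 expression (y axis, ranges differ between panels) of the 9 tested members on each of the 24 arrays by culture state (x axis), with control arrays in blue, IFT88KD arrays in red and a short line at the mean of each group. Stmn1 falls from 10.19 to 10.42 in control proliferating arrays to 5.82 to 6.33 in control replated arrays, while Tubb6 is highest in differentiating cells, at 10.20 to 10.34 in control arrays.

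Stmn1, the stathmin of dividing cells, lost most of its signal when control cells left the cell cycle in suspension. Control proliferating arrays read 10.19, 10.39 and 10.42 log2 units, and control quiescent arrays 7.25, 7.10 and 7.25. No quiescent array came near a proliferating one. The change was -3.13 (SE 0.13, n = 3 and 3), an 8.76-fold fall (limma adjusted p = 7.21e-15), and -3.27 relative to the median gene. After replating the control arrays read 6.33, 5.82 and 5.84, a further -1.20 (limma adjusted p = 5.41e-08) or -0.59 relative to the median gene. All 3 lay below the quiescent arrays. In control differentiating cells the arrays read 9.12, 9.31 and 9.37, and the change from proliferating cells was -1.06 (limma adjusted p = 8.6e-07). Stmn1 thus stayed much closer to its proliferating level after 48 h in low serum than in suspension. In order, its group means ran from control proliferating (10.33) and IFT88KD proliferating (10.30), which overlapped, through both differentiating groups (9.5 in IFT88KD and 9.27 in control, overlapping) to IFT88KD quiescent (8.08). Control quiescent (7.20 ± 0.08, SD, n = 3) and IFT88KD replated (7.05 ± 0.05, SD, n = 3) overlapped, and control replated was lowest at 6 ± 0.29 (SD, n = 3). In bulk RNA, fewer cells of a type and less RNA per cell cannot be told apart.

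Genes of the cell cycle moved the same way as Stmn1. Of 20 cycling cell genes listed, 19 were tested, and all 19 were lower in control quiescent than control proliferating cells, with a median change of -4.85. Over all genes 29.4% were lower. Only 14 of the 19 were above the filter on all 3 control quiescent arrays, so some of these falls end near the floor. The mean of the list ran from 8.08 to 8.20 on control proliferating arrays and from 3.06 to 3.45 on control quiescent arrays. In differentiating control cells it ran from 6.71 to 6.95, with all 19 genes lower, beside 30.3% of all genes, and a median of -1.46. The part of dividing cells in the Stmn1 change was not tested. Among the 8600 genes, the nearest to Stmn1 by Pearson r over the 8 group means were Incenp (0.999), a chromosomal passenger protein, Ap1ar (0.999), and Cdk1 (0.998), the mitotic kinase. These 8 points share their arrays and scale, so r is a description.

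Knockdown of IFT88 left more Stmn1 in arrested and replated cells. IFT88KD quiescent arrays read 7.93, 8.27 and 8.05, each above all 3 control arrays of that state. The difference was 0.88 (SE 0.13, 95% interval 0.61 to 1.16), or 1.84-fold (limma adjusted p = 0.000177). IFT88KD replated arrays read 7.02, 7.11 and 7.03, again all above control, with a difference of 1.06 (SE 0.13, 95% interval 0.78 to 1.33), or 2.08-fold (limma adjusted p = 5.83e-05). In proliferating cells the difference was -0.03 (95% interval -0.31 to 0.24), with IFT88KD arrays at 10.30, 10.33 and 10.26 inside the range of the controls. In differentiating cells IFT88KD arrays read 9.21, 9.62 and 9.66 and overlapped the controls, with a difference of 0.23 (95% interval -0.05 to 0.51, limma adjusted p = 0.999). The effect in quiescent cells exceeded that in proliferating cells by 0.92 (SE 0.19, limma adjusted p = 0.0113), and the effect in replated cells did so by 1.09 (SE 0.19, limma adjusted p = 0.0076). The effect in differentiating cells was -0.65 relative to quiescent cells (SE 0.19, limma adjusted p = 0.119), and passed with replicate pairs as a block (limma adjusted p = 0.0366). Of all genes, 1.24% passed the test of quiescent against proliferating effects and 0.36% that of replated against proliferating effects. For differentiating cells the shares were 0.0465% against proliferating and 1.13% against quiescent cells.

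The cell cycle list stood beside this change. All 19 tested genes were higher in IFT88KD than control quiescent cells, with a median of 1.48, and 15 of 19 were higher in replated cells, with a median of 0.93, while 5.2% and 2.41% of all genes changed in either direction. In control cells 14 of the 19 were above the filter on all 3 quiescent arrays and 9 on all 3 replated arrays, so some of these values lie near the floor. The list mean ran from 4.52 to 5.02 on IFT88KD quiescent arrays. It ran from 3.39 to 3.52 on IFT88KD replated arrays against 2.26 to 2.41 in controls. In proliferating and differentiating cells 0 of the 19 genes were called. Macrophage markers also differed in quiescent cells, where their mean ran from 3.14 to 3.21 in control and from 2.48 to 2.71 in IFT88KD arrays, with Cd14 at 8.01 and 6.47. Of the 6 listed markers on the array, 3 were above the filter on all control quiescent arrays and 2 on all IFT88KD quiescent arrays. Lyz2, Ptprc and Adgre1 were not above it on any of these 6 arrays. In replated cells the mean ran from 2.78 to 2.80 in control and from 2.31 to 2.35 in IFT88KD arrays, and 2 of 3 tested markers were lower in each of these states (median -1.32 and -1.07). Of 20 muscle differentiation genes 3 were higher in IFT88KD quiescent cells and 0 in replated cells, with medians of 0.73 and 0.72, and the list mean ran from 7.19 to 7.75 against 6.49 to 6.92 in quiescent control arrays and from 6.23 to 6.52 against 5.43 to 5.79 in replated ones. What part any of these lists had in the Stmn1 difference was not tested.

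The brighter Stmn1 probe set, used above, is of the s_at kind. The second one read lower and gave smaller knockdown differences. In quiescent cells IFT88KD arrays read 2.74, 3.05 and 3.29 and control arrays 2.55, 2.71 and 2.59. In replated cells the values were 1.5, 1.64 and 1.43 against 1.32, 1.26 and 0.97. All IFT88KD arrays were above all control arrays in both states, but the differences were 0.41 (limma adjusted p = 0.196) and 0.34 (limma adjusted p = 0.391) when each probe set was tested on its own. This probe set was above the filter on 17 of 24 arrays, on 2 of 3 in control quiescent cells and on none in replated cells, so its values in replated cells lie at the floor and do not bear on the size of a difference there. With the probe sets averaged, the differences of the effect from proliferating cells were 0.62 in quiescent (limma adjusted p = 0.123) and 0.67 in replated cells (limma adjusted p = 0.191). On differentiation, where all its arrays were above the filter, it gave -1.04 against -1.06 for the brighter one, and on entry into quiescence it gave -3.76, a larger fall than -3.13.

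**Figure D2:**
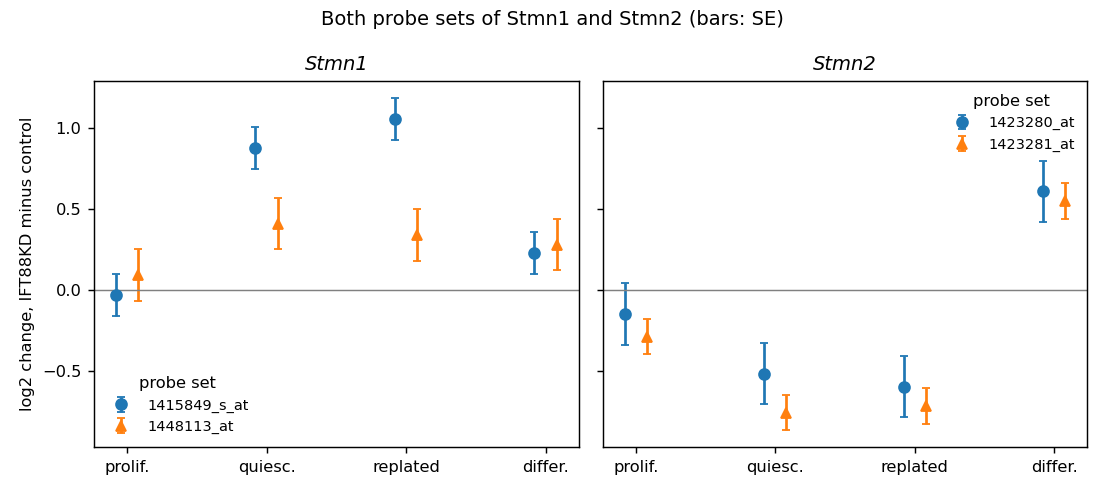
Log2 change of IFT88KD minus control (y axis) in the 4 states (x axis) for both probe sets of Stmn1 and of Stmn2, with bars for the SE. In quiescent cells the brighter Stmn1 probe set stands at 0.88 and the dimmer at 0.41, and both Stmn2 probe sets are below 0 in 3 states and above 0 in differentiating cells (0.55 and 0.61).

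Stmn2 followed another course from Stmn1, with little loss in suspension and the largest loss during differentiation. Control arrays read 9.71, 9.76 and 9.60 in proliferating cells and 9.69, 9.97 and 9.77 in quiescent cells. The 2 groups overlapped, and the change was 0.12 (SE 0.11, limma adjusted p = 0.328), or -0.02 relative to the median gene. Its second probe set gave -0.50 here (limma adjusted p = 0.0196), so the direction of this step depends on the probe set. Control replated arrays read 8.80, 9.01 and 8.85, lower than quiescent arrays by -0.93 (limma adjusted p = 1.44e-07) and by -0.32 relative to the median gene. With each array centred on its median the replating change was -0.06 (limma adjusted p = 0.616). In control differentiating cells Stmn2 read 7.38, 7.53 and 7.45, far below every proliferating array. That change was -2.24 (SE 0.11, limma adjusted p = 7.34e-13), a 4.71-fold fall, and the second probe set gave -2.40. Over the 8 group means Stmn2 correlated with Stmn1 at only 0.0173, and its nearest genes were Slc4a8 (0.977), a bicarbonate transporter, Tmem243 (0.972) and Hace1 (0.965), a ubiquitin ligase.

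The knockdown values of Stmn2, for which it was chosen, were lower in 3 states and higher in differentiating cells. IFT88KD proliferating arrays read 9.36, 9.58 and 9.25, a difference of -0.29 (SE 0.11). In quiescent cells they read 8.93, 8.96 and 9.25 (-0.76), and in replated cells 8.04, 8.17 and 8.28 (-0.72). No IFT88KD array reached a control array in any of these 3 states. In differentiating cells they read 7.91, 8.11 and 7.99, all above control, a difference of 0.55 or 1.46-fold. The second probe set gave -0.15, -0.52, -0.60 and 0.61 in the same order. On that probe set the groups overlapped in proliferating cells, with control arrays at 8.63, 8.10 and 7.76 and IFT88KD arrays at 8.25, 8.05 and 7.72, and did not overlap in the other states. The difference between differentiating and quiescent effects was 1.31, and between differentiating and proliferating effects 0.84. In differentiating cells, where Stmn2 was higher, Ift88 differed by -0.01 between the groups, on a probe set near the filter, as given above.

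Apart from Stmn2, most of the neuronal genes listed were near the floor, and Tubb3 was near the filter in control quiescent cells. Of 13 neuron markers on the array, 1 or 2 were above the filter on all arrays of a group: Tubb3 in each group and Nefl in control proliferating cells as well. Snap25 stood at 0.80, Syt1 at 1.09, Rbfox3 at 1.21 and Syp at 1.57 in control quiescent cells, above the filter on 0 arrays. Stmn4, a further stathmin and no member, was higher in quiescent than proliferating control cells by 0.96 (limma adjusted p = 4.17e-07). Its change on replating was -0.55 (limma adjusted p = 0.00035), close to the -0.61 of the median gene. In differentiating cells it was higher than in proliferating cells by 0.80 (limma adjusted p = 1.01e-05). It read 1.70 to 1.93 in control proliferating and 2.63 to 2.84 in control quiescent arrays. Only in control quiescent, replated and differentiating cells was it above the filter on all 3 arrays, so these changes lie near the floor. In the 4 knockdown comparisons Stmn4 was not called.

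Both alpha-tubulins were lower in suspension, and differentiation separated them. Tuba1a, an alpha-tubulin of growing cells and neurons, is measured here by 1 probe set of the x_at kind. Its probes may also match other alpha-tubulins. Control arrays read 11.17, 11.27 and 11.35 in proliferating and 10.40, 10.33 and 10.52 in quiescent cells, with no overlap and a change of -0.85 (SE 0.09, limma adjusted p = 3.62e-08). Replated arrays read 10.22, 10.10 and 10.26. Their change of -0.22 (limma adjusted p = 0.0314) is opposite in sign to the change relative to the median gene, 0.39. It was 0.06 after quantile normalisation and 0.64 after centring, and the call was lost without control quiescent replicate 1 or 3 or control replated replicate 2 (limma adjusted p = 0.0528, 0.135 and 0.128). Differentiating arrays read 11.15, 11.16 and 11.01, a change of -0.16 (limma adjusted p = 0.152). The genes nearest to Tuba1a over the 8 group means were Cyc1 (0.999), a respiratory chain subunit, Atp5j (0.998) and Sass6 (0.998), a centriole protein, and with Stmn1 its r was 0.98.

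Tuba4a, an alpha-tubulin of differentiated tissues such as muscle and brain, fell in suspension and rose in differentiating cells. Control arrays read 8.95, 8.67 and 8.61 in proliferating cells and 8.19, 7.95 and 7.91 in quiescent cells (-0.72, SE 0.14, limma adjusted p = 0.000115). The groups did not overlap. Differentiating control arrays read 9.82, 9.41 and 9.49, all above every other control array, a rise of 0.83 (SE 0.14, limma adjusted p = 4.51e-05) or 1.78-fold. On replating the arrays read 8.35, 8.30 and 8.28, a change of 0.29 (limma adjusted p = 0.0668), or 0.91 relative to the median gene. It passed without control quiescent replicate 1 (0.38, limma adjusted p = 0.0344) and with the replicate number over all arrays as a block (limma adjusted p = 0.0184). It also passed on both other scalings, at 0.62 and 1.16. Its other probe sets gave 0.83 and 0.48 on differentiation, but 1 of them read 0.21 on entry into quiescence. The nearest genes were Kcnj12 (0.991), a potassium channel, Edc4 (0.978) and Top1 (0.975).

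All 5 beta-tubulins fell in suspended control cells, by very different amounts. Tubb3, the class III form used as a neuronal marker, read 5.68, 5.54 and 5.40 in proliferating and 3.30, 3.01 and 3.37 in quiescent control arrays. Its change was -2.32 (SE 0.14, limma adjusted p = 2.5e-12), a 4.98-fold fall. The quiescent values lay below the median of those arrays (3.8 to 3.83). The lowest Tubb3 value of all 24 arrays was at the 43.7th percentile, near the filter, so the size of this fall may be limited. Tubb5, the common beta-tubulin of dividing cells, read 11.10, 11.11 and 11.05 and then 9.62, 9.77 and 9.70. It changed by -1.39 (SE 0.09, limma adjusted p = 9.46e-12), or 2.62-fold. In both genes every quiescent array was below every proliferating one. Tubb2b, a form of neural and other developing tissue, read 8.89, 9.08 and 9.29 and then 8.08, 7.79 and 8.01 (-1.13, limma adjusted p = 4.21e-07). Tubb2a, its close paralog, went from 8.73, 9.12 and 9.23 to 8.37, 8.16 and 8.37 (-0.73, limma adjusted p = 2.55e-05). Tubb6, the class V form found in regenerating muscle, went from 8.66, 9.03 and 9.10 to 8.24, 8.05 and 8.06 (-0.82, limma adjusted p = 1.09e-05). No quiescent array of these 3 genes reached a proliferating one. Over all members, 8 of 9 were lower and 0 higher on entry into quiescence, with a median of -0.85, while 29.4% of all genes were lower and 41.9% higher with a median of 0.14.

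Replating split the beta-tubulins. Tubb6 rose within 2 h to 9.51, 9.28 and 9.45, above every quiescent and proliferating control array, by 1.3 (SE 0.13, limma adjusted p = 1.54e-08) or 2.46-fold, and by 1.91 relative to the median gene. Tubb2a rose to 8.92, 8.89 and 9, by 0.64 (SE 0.13, limma adjusted p = 1e-04), and Tubb2b to 8.35, 8.39 and 8.46, by 0.44 (SE 0.14, limma adjusted p = 0.00832). In both genes each replated array was above each quiescent one, and relative to the median gene the rises were 1.25 and 1.05. The Tubb2a rise rests on 1 probe set of the s_at kind. The other, much dimmer one gave -0.09 (limma adjusted p = 0.662), and their mean gave 0.27 (limma adjusted p = 0.0569). For Tubb2b, a dimmer probe set shared with Tubb2a-ps2, left out as one of several genes, went the other way. It read 3.54, 3.54 and 3.39 in control quiescent and 2.95, 2.28 and 1.48 in control replated arrays, and was not tested. Tubb5 read 9.76, 9.47 and 9.5, a change of -0.12 (limma adjusted p = 0.226), or 0.49 relative to the median gene, and 0.74 with centred arrays (limma adjusted p = 1.45e-07). Without control replated replicate 1 Tubb5 passed as lower (-0.21, limma adjusted p = 0.0393). Tubb3 read 3.49, 3.55 and 3.07 and overlapped the quiescent arrays (0.15, limma adjusted p = 0.339), but it was higher at 1.01 on both other scalings. With array weights on the deposited scale Tubb3 (0.26, limma adjusted p = 0.0449) and Tubb5 (-0.21, limma adjusted p = 0.00865) both passed. The second Tubb5 probe set was lower by -0.65 (limma adjusted p = 0.000272), and quantile normalisation gave Tubb5 0.18 (limma adjusted p = 0.0876). Whether these genes changed on replating therefore differs between scalings, models and, for Tubb5, probe sets, and Tubb5 has no settled direction.

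By their brightest probe sets, 3 members were higher on replating (Tubb6, Tubb2a and Tubb2b), 3 were lower (Stmn1, Stmn2 and Tuba1a) and 3 did not pass. Of all genes 9.62% were higher and 66.8% lower. Higher genes made up 12.6% of all calls as deposited, 42.4% after quantile normalisation and 69.4% after centring, and the members' split became 5 higher and 2 lower, then 7 and 1. Relative to the median gene the brightest probe sets of all 7 tubulins moved upwards on replating, from 0.39 (Tuba1a) to 1.91 (Tubb6). Those of both stathmins moved downwards. The second Tubb5 probe set changed by -0.65, beside a median of -0.57 over all probe sets tested, and the shared Tubb2b one also fell. On entry into quiescence centring moved the share of higher calls from 58.7% to 45%, with 8 members lower under either scale. The median change of all genes on replating became -0.10 and 0.25 under these scalings.

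In differentiating control cells Tubb6 reached 10.34, 10.20 and 10.33, its highest level, and Tubb5 and Tubb3 stayed below their proliferating levels. The Tubb6 rise over proliferating cells was 1.36 (SE 0.13, limma adjusted p = 2.43e-08), or 2.57-fold, with no overlap. Tubb5 read 10.26, 10.28 and 10.29 (-0.82, limma adjusted p = 1.51e-07), and Tubb3 4.56, 4.25 and 4.47 (-1.11, limma adjusted p = 7.99e-07). Both lay between their proliferating and their quiescent levels. Tubb2a read 9.46, 9.26 and 9.27, all above the proliferating arrays, with a change of 0.30 (limma adjusted p = 0.0475). That call is weak: it was lost without any of 5 of the 6 control arrays (control proliferating replicate 1 or 2, or control differentiating replicate 1, 2 or 3), with changes between 0.15 and 0.35, and it was 0.01 when its probe sets were averaged. Tubb2b read 9.32, 9.16 and 9.27 and changed by 0.16 (limma adjusted p = 0.345). Over all members 3 were higher (Tubb6, Tuba4a and Tubb2a) and 4 lower (Stmn2, Tubb3, Stmn1 and Tubb5), with a median of -0.16, against 24.4% of genes higher and 30.3% lower and a median of -0.06. With centred arrays 2 were higher and 5 lower. All 20 tested genes of the muscle differentiation list were higher in these cells, with a median of 5.16.

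**Figure D3:**
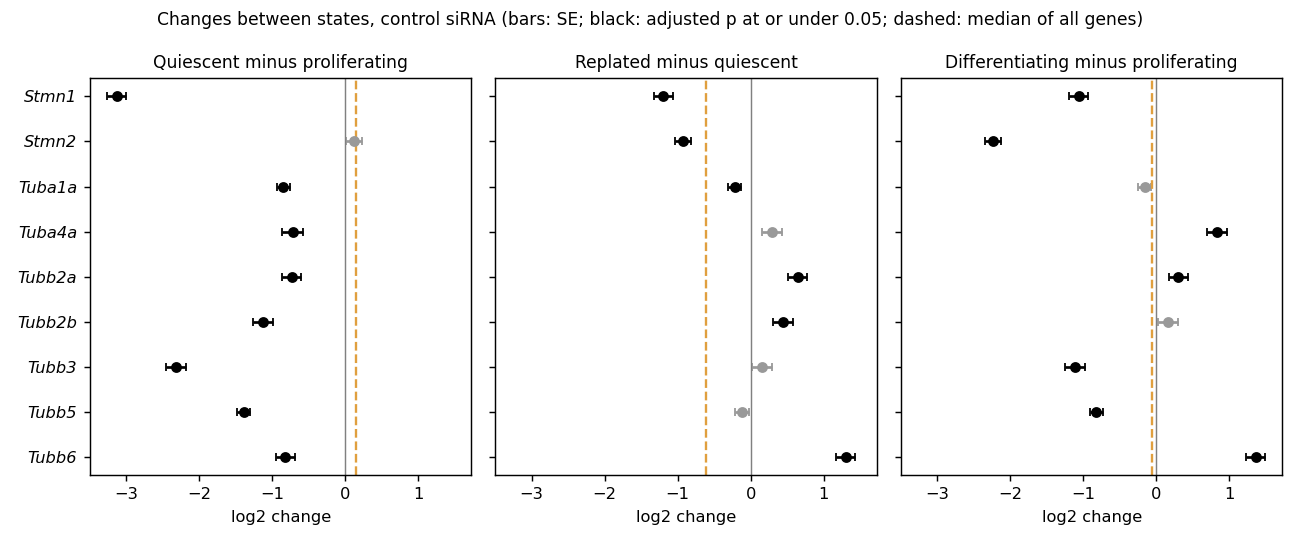
Log2 change (x axis) of each tested member between control states, with bars for the SE, black points for an adjusted p at or under 0.05, grey points for the rest and a dashed line at the median change of all 8600 genes. All members but Stmn2 (0.12) lie below 0 in the first panel, and Tubb6 is the highest member on replating (1.3) and on differentiation (1.36).

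Within an array, the mix of beta-tubulin signals shifted. This measure is free of the scale of a state only if that scale adds the same amount to each gene. Quantile normalisation did not: on replating it moved Tubb3 from 0.15 to 1.01 and Tubb5 from -0.12 to 0.18. The difference of Tubb3 from Tubb5 on that step thus depends on the scaling. Relative to Tubb5 and to control proliferating cells, Tubb6 stood 0.57 ± 0.18 (SD, n = 3) higher in control quiescent cells. The shift was 1.99 ± 0.11 in replated and 2.18 ± 0.08 in differentiating cells. Tubb2a shifted by 0.66 ± 0.19, 1.42 ± 0.18 and 1.12 ± 0.13, and Tubb2b by 0.26 ± 0.22, 0.83 ± 0.20 and 0.98 ± 0.09, in the same order. Tubb3 went the other way, by -0.93 ± 0.25, -0.66 ± 0.26 and -0.30 ± 0.17, and its control quiescent values lie near the filter. The values of Tubb6, Tubb2a and Tubb2b relative to Tubb5 were thus higher in replated and in differentiating than in proliferating control cells, by more than the SD of 3 arrays. IFT88KD cells showed the Tubb6 shift too, at 0.75, 1.74 and 2.03. The ratio shows unequal change, and does not show which of the paired genes moved.

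**Figure D4:**
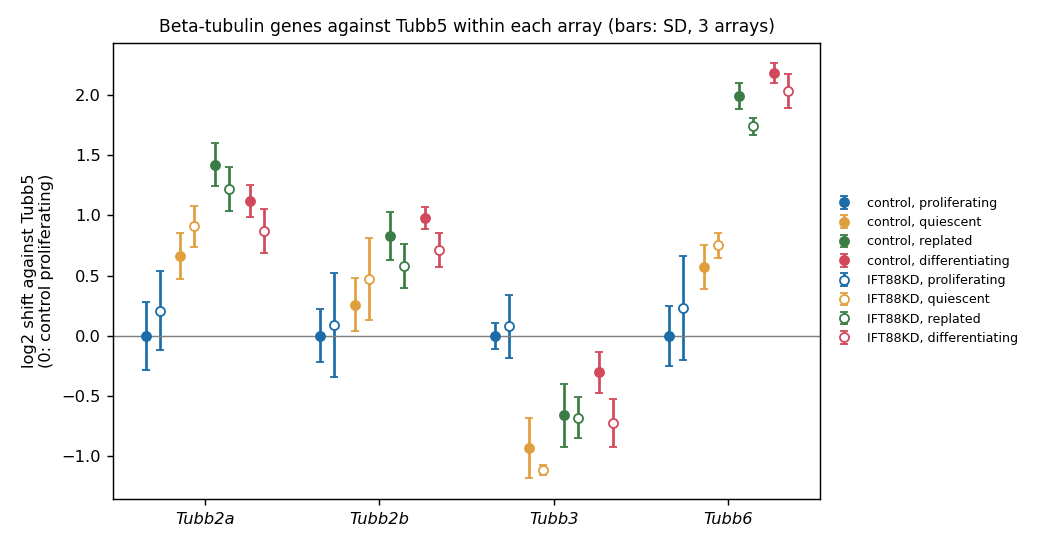
Mean shift of a beta-tubulin's log2 value minus that of Tubb5 within an array (y axis, 0 at the mean of control proliferating arrays), with bars for the SD of 3 arrays, colours for the states and filled points for control and open points for IFT88KD. Tubb6 is shifted by 1.99 in control replated and 2.18 in control differentiating cells, while the mean of Tubb3 lies below 0 in control quiescent, replated and differentiating cells.

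Over the 8 group means the members fell into the same loose sets. Tubb3 and Tubb5 correlated at 0.978, Stmn1 and Tubb5 at 0.928 and Tubb2a and Tubb2b at 0.90. Tubb6 was closest to Tuba4a (0.867) and Tubb2a (0.862), was at 0.185 with Tubb5 and ran against Stmn2 (-0.858). Among all genes, Tubb5 was nearest to Nol11 (0.998), a ribosome biogenesis factor, Chaf1b (0.997), a histone chaperone subunit, and Ube2s (0.996), a mitotic ubiquitin-conjugating enzyme. Tubb3 was nearest to Cct7 (0.992), Nup62 (0.992) and Suv39h2 (0.991), and Tubb6 to Atp13a3 (0.965), Zbtb48 (0.964) and Rflnb (0.959). Tubb2a was nearest to Kctd9 (0.982), Rgs14 (0.969) and Sox11 (0.967), and Tubb2b to Ptpn11 (0.988), Bysl (0.986) and Zdhhc16 (0.986). These are 8 points that share arrays and scale, and they are given as a description.

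Ordered by group mean, the tubulins had their lowest levels in suspended or replated cells. Control quiescent cells were lowest for Tubb6 (8.11 ± 0.11, SD, n = 3), Tubb2a (8.3 ± 0.12, SD, n = 3), Tubb2b (7.96 ± 0.15, SD, n = 3) and Tuba4a (8.02 ± 0.16, SD, n = 3). Tubb6 and Tubb2a did not overlap the next group, IFT88KD quiescent cells, and Tubb2b and Tuba4a did. Control replated cells were lowest for Tuba1a (10.19 ± 0.09, SD, n = 3) and Tubb5 (9.58 ± 0.16, SD, n = 3), overlapping the next group in both. IFT88KD quiescent cells were lowest for Tubb3 (3.11 ± 0.10, SD, n = 3), and all 4 quiescent and replated groups of Tubb3 overlapped their neighbours. At the upper end, control differentiating cells were highest for Tubb6, Tuba4a, Tubb2a and Tubb2b, and proliferating cells for Tuba1a, Tubb3 and Tubb5. The highest and second highest group overlapped in each of the 7 genes. Stmn2 was highest in control quiescent (9.81 ± 0.14, SD, n = 3) and control proliferating cells (9.69 ± 0.08, SD, n = 3), which overlapped, and lowest in control differentiating cells (7.45 ± 0.08, SD, n = 3), apart from all others.

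In the main, unpaired fit, whose counts follow, none of the 7 tubulins passed the test in any of the 4 knockdown comparisons. Tubb2a, Tubb2b and Tubb5 passed with replicate pairs as a block, as given below. With Stmn2 left out as chosen, 0 of 8 members were called in proliferating cells, where 0.36% of all genes were. In quiescent cells 1 of 8 was called, Stmn1, beside 5.2% of genes, and in replated cells again Stmn1 alone, beside 2.41%. In differentiating cells 0 of 8 were called, beside 0.14%. At an unadjusted p under 0.05 the counts were 0, 2, 2 and 1. The medians of the 8 members were 0.03, 0.18, 0.06 and -0.13, against all-gene medians between -0.01 and 0.01.

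Some tubulin values leaned one way without passing. In quiescent cells the IFT88KD arrays of Tubb2a read 8.55, 8.57 and 8.75, all above control, with a difference of 0.32 (95% interval 0.06 to 0.58, limma adjusted p = 0.172). Those of Tubb6 read 8.46, 8.38 and 8.24, also all above control (0.25, 95% interval -0.03 to 0.52, limma adjusted p = 0.37). Those of Tubb2b read 8.38, 7.93 and 8.43 and overlapped control (0.28, limma adjusted p = 0.335). With replicate pairs as a block, Tubb2a (limma adjusted p = 0.0124) and Tubb2b (limma adjusted p = 0.0189) passed there. In replated cells Tubb5 read 9.94, 9.82 and 9.73 in IFT88KD arrays and partly overlapped control (0.25, 95% interval 0.06 to 0.44, limma adjusted p = 0.164). It passed with the block (limma adjusted p = 0.0322) and without control replated replicate 1 (0.34, limma adjusted p = 0.0394). With array weights Tubb2a in quiescent cells (0.33, limma adjusted p = 0.0396) and Tubb5 in replated cells (0.31, limma adjusted p = 0.0114) passed too. The calls of Tubb2a, Tubb2b and Tubb5 thus turn on the model, and the differences named here are all under 0.35.

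In differentiating cells Tubb3 read 4.25, 3.99 and 4.01 in IFT88KD arrays, a difference of -0.35 (95% interval -0.64 to -0.06, limma adjusted p = 0.893). Tubb2b read 9.12, 8.93 and 9.12, all below control, a difference of -0.19 (95% interval -0.49 to 0.10). Tuba4a read 9.59, 9.27 and 9.04 (-0.27, 95% interval -0.57 to 0.02). The Tubb3 and Tuba4a arrays touched or overlapped control, and none of the 3 genes passed. The difference of the effect between differentiating and quiescent cells was -0.50 for Tubb2a (limma adjusted p = 0.267) and -0.48 for Tubb2b (limma adjusted p = 0.423), and both passed with the block (limma adjusted p = 0.0172 for each). Tuba1a differed little, by 0.08, 0.11, 0.07 and -0.01 in the 4 states and no interval beyond -0.20 to 0.30. Tubb6 differed by 0.18 in proliferating cells (95% interval -0.10 to 0.45), by 0 in replated cells and by -0.08 in differentiating cells.

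**Figure D5:**
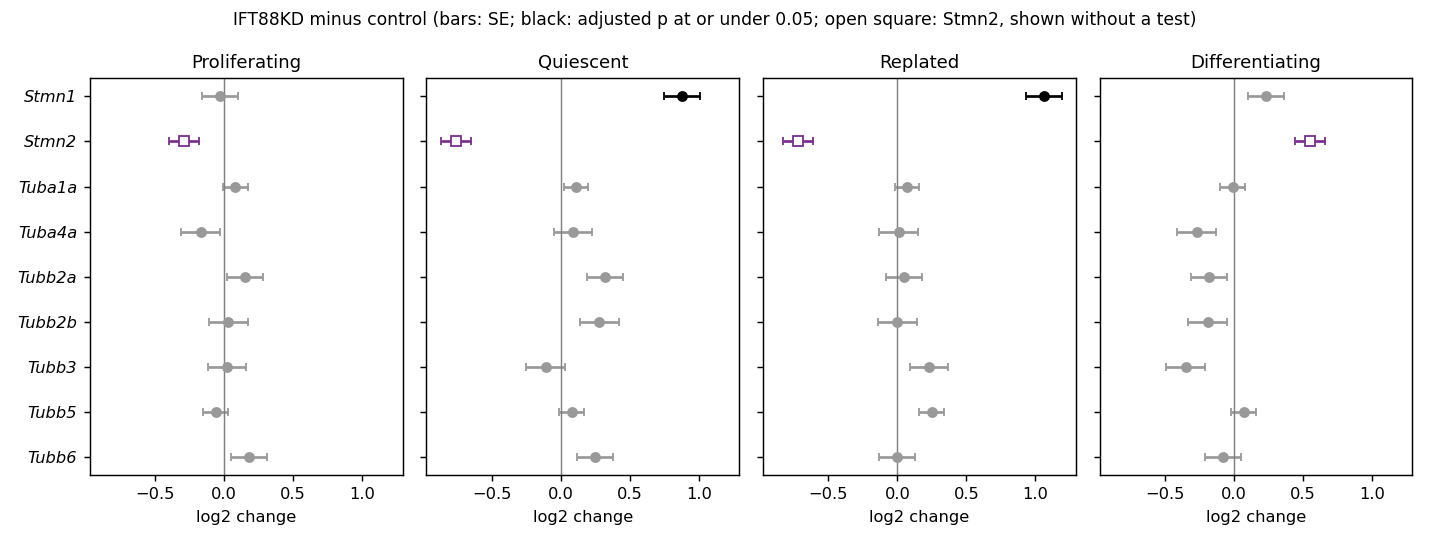
Log2 change of IFT88KD minus control (x axis) for each tested member in the 4 states, with bars for the SE, black points for an adjusted p at or under 0.05, grey points for the rest and an open square for Stmn2, which was chosen for this pattern and not tested. Stmn1 is above 0 in quiescent (0.88) and replated (1.06) cells, the 7 tubulins lie within 0.35 of 0 in every state, and Stmn2 goes from -0.76 in quiescent to 0.55 in differentiating cells.

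Of the other tubulin genes listed, 13 in all, 7 had a probe set and 4 were tested. Tubb4b, a further beta-tubulin of dividing and ciliated cells, fell by -2.39 in suspension (limma adjusted p = 3.15e-14), rose on replating by 0.42 (limma adjusted p = 0.0016) and was lower in differentiating cells by -0.94 (limma adjusted p = 3.74e-07). Tubg1, the gamma-tubulin that nucleates microtubules, fell by -1.96 in suspension (limma adjusted p = 4.48e-13) and by -1.37 on replating (limma adjusted p = 2.96e-10). The median change of all genes on replating was -0.61. Tubb4a, known from the brain, was higher in suspension by 1.01 (limma adjusted p = 2.95e-06). None of the 4 was called in a knockdown comparison.

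Genes for nucleating and folding tubulin were counted beside the shares of all genes in suspension, 29.4% lower and 41.9% higher, with a median of 0.14. Of 7 tested genes of the gamma-tubulin ring complex 4 were lower (Nedd1 by -1.08, Tubgcp2 by -0.67) and 1 was higher, Mzt2 by 0.45, with a list median of -0.63. Of 20 tested folding genes 13 were lower and 5 higher, with a median of -0.56. Neither list was tested as a whole. The lower ones included 3 subunits of the CCT chaperonin, which folds new tubulin: Cct3 (-1.31), Cct6a (-1.11) and Cct7 (-1.10). On replating 13 of the 20 were lower and 0 higher, a share near the 66.8% of all genes, and the list median of -0.66 was near the -0.61 of all genes. Ttc5, which reads out excess free tubulin in the mRNA feedback loop, fell by -1.55 (limma adjusted p = 1.86e-10). In differentiating cells 12 of the 20 were lower and 2 higher, beside 30.3% and 24.4% of all genes. None of these genes was called in a knockdown comparison.

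Genes whose products act on the polymer moved in both directions. Of 11 tubulin modifying enzymes 6 were higher in suspension, including the deacetylase Sirt2 (1.22) and the deglutamylase Agbl5 (1.21), and 4 were lower. In differentiating cells Svbp (1.71) and Vash2 (1.09), a partner and a catalytic subunit of the enzyme that removes the terminal tyrosine of alpha-tubulin, were higher. Of 11 structural microtubule-associated proteins 6 were higher in suspension and 2 lower, and Dclk1 (2.85) and Map1lc3a (2.00) rose most on differentiation. Of 11 plus-end proteins 4 were higher and 4 lower in suspension. With 41.9% of all genes higher and 29.4% lower, the plus-end counts lie near the background and the medians of the 3 lists (0.44, 0.22 and 0.04) stand beside 0.14 over all genes. Mapre3, an end-binding protein of muscle and neurons, was higher by 1.28 there and by 1.55 in differentiating cells, and Ckap5, a microtubule polymerase, was lower by -1.18 in suspension.

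Of the microtubule lists, that of severing enzymes and depolymerising kinesins, which also shorten microtubules, held the most knockdown calls. In quiescent cells 2 of its 3 calls were on genes near the floor, as given below. In IFT88KD quiescent cells 3 of 6 were higher: Fignl1 by 1.43 (limma adjusted p = 2.91e-07), Kif2c by 0.55 (limma adjusted p = 0.0346) and Kif18a by 0.44 (limma adjusted p = 0.0179). Over all genes 2.88% were higher there. In control quiescent cells Fignl1 stood at 2.72 ± 0.27 (SD, n = 3), above the filter on 2 of 3 arrays, while Kif2c (1.94 ± 0.29, SD, n = 3) and Kif18a (1.35 ± 0.03, SD, n = 3) were above it on 0. In IFT88KD quiescent cells Kif2c was above it on 1 array and Kif18a on 0, so the differences of Kif2c and Kif18a lie near the floor of the array. These 2 genes passed the filter through other groups, so the count of 3 beside 2.88% is no result about the list. The same 3 fell most on entry into quiescence, by -4.79, -4.08 and -3.34, falls that end near that floor. Kif2c and Kif18a act in the mitotic spindle, and Fignl1 is also known for a role in DNA repair. Map7, a microtubule-associated protein that recruits kinesin, was higher by 0.86 in IFT88KD quiescent cells (limma adjusted p = 0.00203), and it had itself risen in control quiescent cells by 1.09. In replated cells none of these 4 was called, with differences from 0.02 to 0.31.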

How the data were processed

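Expression was measured on 1-colour Affymetrix arrays. The deposited table holds log2 values of 22690 probe sets, which the authors made with GCOS, Affymetrix Expression Console and affy, per the submitters' processing notes. Versions and the normalisation method are not given in the sources used here. Within a state the sorted values of the arrays lay a median of 0.04 to 0.08 apart, and over all 24 arrays 0.44. Control probe sets (64) and those of several genes (691) or none (1555) were left out. Members, gene lists and tests were chosen with earlier results of these data known. Every member was named in each comparison, with up to 4 called genes of a pathway list and the 3 genes nearest to a member by Pearson r.

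A gene's level is that of its brightest probe set, with x_at probe sets used only where no other existed. Genes passed the filter on low values when 3 or more arrays had them above that array's 40th percentile. A single limma 3.58.1 model (R 4.3.3) with a coefficient per group gave 11 contrasts. Tests are limma's moderated test, two-sided, with Benjamini-Hochberg adjustment over 8600 genes and a threshold of 0.05. Changes are log2, first group minus second. The script was tested on simulated data. Plots were drawn with Python 3.11.15 and matplotlib 3.10.9. The number of arrays limits the precision.

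Replicate numbers come from the sample titles. IFT88KD and control arrays sharing a number deviated together, with r from 0.304 to 0.708 (proliferating), from 0.252 to 0.487 (quiescent), from 0.281 to 0.487 (replated) and from 0.45 to 0.671 (differentiating), against 0.134 at most for unequal numbers, so the numbers pair arrays of a state. Control arrays sharing a number also deviated together between replated and quiescent cells (r from 0.156 to 0.421, other numbers at most 0.0485) and between differentiating and proliferating cells (0.164 to 0.284, others at most 0.0598), but not between quiescent and proliferating cells (-0.0318 to 0.0672). Values are unpaired, and a blocked value is given where it changes a call. In knockdown comparisons and their differences the block was the pair of arrays within a state. For changes between states it was the replicate number over all arrays. Alternatives were quantile normalisation, median centring, other filters, averaged or separate probe sets, array weights, a variance trend, the block, the compared groups alone and each array left out.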

Additional observations from a re-analysis of the deposited data

Results flagged for a closer look

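The response of Stmn1 to the knockdown differed between states by a test of the difference itself. The effect in quiescent cells exceeded that in proliferating cells by 0.92 log2 units (SE 0.19, limma adjusted p = 0.0113), with 3 of 3 IFT88KD arrays above all control arrays in quiescent cells. The effect in replated cells exceeded it by 1.09 (SE 0.19, limma adjusted p = 0.0076), again with 3 of 3 arrays above. With the second Stmn1 probe set the differences were 0.32 (limma adjusted p = 0.798) and 0.24 (limma adjusted p = 0.968).

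Stmn2 moved in opposite directions: all IFT88KD arrays were above all control arrays in differentiating cells and below all of them in the other states. The effect in differentiating cells exceeded that in proliferating cells by 0.84, in quiescent cells by 1.31 and in replated cells by 1.27. This difference was not tested, because Stmn2 was chosen by it.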

How the results depend on the processing

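The number of members called in the knockdown (Stmn2 left out) changed with the processing. In quiescent cells it was 1, and 2 with array weights, 3 with the replicate block (the pairing of arrays) and 0 with the other probe sets of Stmn1 and Stmn2, an alternative chosen after seeing the data. In replated cells it was 1, and 2 with array weights, 2 with the replicate block, 0 with the other probe sets and 1 to 2 with an array left out, 2 without control replated replicate 1. For the difference of effects between quiescent and proliferating cells, and between replated and proliferating cells, it was 1 and became 0 with the mean of probe sets and with the other probe sets. For differentiating against quiescent cells it was 0, and 1 with array weights and 3 with the replicate block. Reversed values were Stmn2 on entry into quiescence with its other probe set (-0.50), Tuba1a on replating after quantile normalisation (0.06) and centring (0.64), and Tubb5 on replating after centring (0.74). With probe sets averaged, Tubb5 on replating was -0.39 (limma adjusted p = 0.0014) and Tubb2a 0.27 (limma adjusted p = 0.0569). The Stmn1 difference ranged from 0.41 to 0.96 in quiescent and from 0.34 to 1.22 in replated cells over all alternatives, and the Tubb6 rise from 1.23 to 2.16 on replating and from 1.23 to 1.5 on differentiation. The cause of these changes was not tested. Of the other values under alternatives other than a left-out array, 1039 counted as unchanged, 11 as moved, 20 gained a call and 15 lost one. Some of the 1039 could not change. The other probe sets of Stmn1 and Stmn2, for example, left the tubulin values as they were. Unchanged values kept direction and side of the threshold, or changed sign without a call and by less than the SD within groups. Untested Stmn2 values counted as unchanged if they kept direction and moved by less than that SD. Moved values differed by that SD or more, as a sign change without a call or as an untested Stmn2 value. The block changed no call of a member other than those named in the report.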
